A study of Homo sapiens with 12 samples.

Results

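HEK 293T cells, an established line from human embryonic kidney, take up lentivirus well. Of the 12 libraries of the series, 8 make up the comparison described here: 4 from cells given a lentivirus with a scramble control hairpin and 4 from cells given shRNA-D, a hairpin against SIDT2. The remaining 4 libraries carry a second hairpin against SIDT2, shRNA-B. Scramble and shRNA-D libraries were chosen by their labels alone, and libraries with the same replicate number, 1 to 4, were compared with each other. Every culture, control or knockdown, was infected with lentivirus in polybrene and expressed a hairpin, and poly(A) RNA was collected 72 h later, so infection and polybrene are common to all groups. The labels describe no selection of transduced cells, and the cultures behind the 4 libraries of a group are called biological replicates without further detail, so the p-values rest on how far these libraries vary, which may be technical. The stated aim of the series was to find transcripts that depend on SIDT2 for delivery into lysosomes.

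SIDT2 is a multispanning protein of the lysosomal membrane, known for carrying RNA into the lysosome, where nucleases such as RNASET2 break it down. A short hairpin RNA is processed by the cell's microRNA machinery into a guide strand that is loaded into Argonaute. The guide directs cleavage of a fully matched transcript, and the bases near its 5′ end, the seed, can also lower other transcripts whose 3′ UTR pairs with them. A scramble hairpin makes a guide of its own, with a seed of its own.

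Library totals ranged from 68736977 to 102644246 estimated counts, and 26366 of 85298 gene identifiers passed the filter on low counts. Levels are given in CPM, counts scaled to library size with TMM factors. The scramble and shRNA-D libraries resembled the labelled line: 17 of 20 HEK 293T markers were tested, their summed level was 2010 to 2050 CPM in scramble and 1830 to 2000 CPM with shRNA-D, and 0 of them were called. STMN2, NR0B1 and CRABP1 were the markers of the line that were not tested. Summed markers of mature epithelium reached at most 11 CPM in any of the 8 libraries, and of 4 tested CDH1 was called lower. Summed fibroblast markers reached at most 22.3 CPM, leukocyte markers 4.90 CPM, hepatocyte markers 2.92 CPM and endothelial markers 0.812 CPM in any of the 8 libraries, with COL3A1, PTPRC, APOB and VWF, among others, too low to test. Their part in the results was not tested.

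SIDT2 (ENSG00000149577) held 21.7, 20.5, 18.3 and 19.7 CPM in scramble libraries 1 to 4 and 5.47, 7.20, 7.58 and 7.55 CPM with shRNA-D. No shRNA-D library came near the lowest scramble library. The fitted log2 change was -1.53 ± 0.11 (SE; adjusted p = 2.548e-05), and the shRNA-B libraries, at 6.85 ± 1.04 CPM (SD, n = 4), did not differ from the shRNA-D libraries past the threshold (0.02 ± 0.11, adjusted p = 0.936).

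With shRNA-D, 276 genes rose (1.05% of those tested) and 595 fell (2.26%) at an adjusted p under 0.05, together 871 (3.30%). In 1 simulated data set the share of false calls was above the level that this threshold states, so these counts may hold more false calls than the adjusted p implies. Most changes were small. The median change was 0.38 among genes that rose and -0.38 among genes that fell, on the log2 scale, against -0.0072 over all tested genes. Only 9 rose and 24 fell by more than 2-fold, and 49 and 108 by more than 1.5-fold. Of the 276 genes, 276 were above scramble in 4 of 4 numbered pairs, and of the 595, 594 were below it. The same pairs gave the calls, so this is a description. Without the pairing, 127 of the genes that rose and 307 of those that fell had 4 shRNA-D values entirely outside the 4 scramble values, against 344 (1.30%) and 609 (2.31%) of all tested genes.

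The excess of lower genes was found among protein-coding genes of middle and high level. Of 15092 protein-coding genes tested, 240 rose (1.59%) and 564 fell (3.74%), whereas 3 of 2100 lincRNA genes rose and 3 fell. Between 20 and 100 CPM, 2.06% rose and 5.28% fell; below 1 CPM, 0.115% and 0.0764% did. The balance depended on scaling: 31.7% of called genes were higher under TMM, 42.6% under upper-quartile scaling and 48.9% with total counts alone, under which the median change of all genes was 0.05 on the log2 scale.

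The pairing carried many of the calls. With group alone in the model, 19 genes rose and 52 fell. Among the genes named here the calls that held in that model were those of AEBP2, ANLN, APIP, ATP2B1, ATP2C1, C6orf120, CAV2, CHMP7, CLDN12, CPT2, DIXDC1, EIF1AX, GJA1, INIP, MED14, NELFCD, PFN2, PIK3CB, POLR2D, PPIL1, PRDX3, PUDP, RAB21, SIDT2, SLC39A14, SNN, SPTLC1, STRADB, STX6, TGFBR3, TMBIM6 and YIPF6. Libraries numbered 1 weighed most, and those numbered 3 nearly as much. Without replicate number 3 in any group, 122 genes rose and 210 fell. These counts were 274 and 641 without number 2, and 147 and 412 without number 4. Without replicate number 1 in any group, 105 genes rose and 181 fell, and without any 1 of the 8 libraries 120 to 278 rose and 236 to 464 fell, the fewest without shRNA-D replicate 1.

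After SIDT2, the largest falls among genes with a symbol and at least 5 CPM were in genes of different compartments. SNN, which encodes the small mitochondrial membrane protein stannin, held 21.1, 14.9, 16.55 and 19.4 CPM in scramble libraries 1 to 4 and 6.36, 7.24, 5.81 and 8.003 CPM with shRNA-D (-1.39 ± 0.11, adjusted p = 4.681e-05). PPIL1, a peptidyl-prolyl isomerase of the spliceosome, held 84.1, 83.6, 89.8 and 86.9 CPM against 30.3, 36.1, 36.1 and 38.3 CPM (-1.29 ± 0.06, adjusted p = 3.918e-07). The 4 shRNA-D values of both genes lay far below the scramble values and close to each other. CAV2, a caveolin of the plasma membrane, held 10.2, 9.09, 11.9 and 11.3 CPM against 3.50, 5.13, 4.60 and 4.30 CPM (-1.28 ± 0.10, adjusted p = 2.135e-05). GJA1, the gap junction protein connexin 43, held 32.4, 47.4, 55.0 and 51.4 CPM against 15.4, 22.04, 24.2 and 19.6 CPM (-1.18 ± 0.08, adjusted p = 5.002e-06). In GJA1 the lowest scramble library and the lowest shRNA-D library carried the same number, 1, and each of the 4 pairs fell.

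EIF1AX, a translation initiation factor that helps the small ribosomal subunit scan for the start codon, held 283, 342, 428 and 376 CPM in scramble and 99.4, 148, 168 and 187.5 CPM with shRNA-D (-1.26 ± 0.09, adjusted p = 1.362e-05). ATP2B1, the plasma membrane calcium pump, held 142, 154, 166 and 123 CPM against 60.2, 59.9, 74.1 and 68.45 CPM (-1.16 ± 0.17, adjusted p = 0.0125). TGFBR3, the betaglycan co-receptor for TGF-beta, fell from 40.8 ± 3.52 to 18.4 ± 3.56 CPM (SD, n = 4), and RAB21, an endosomal GTPase, from 87.0 ± 10.1 to 39.1 ± 4.84 CPM. APIP, an enzyme of the methionine salvage pathway, fell from 39.6 ± 3.46 to 18.3 ± 4.27 CPM, and the uncharacterised C6orf120 from 65.9 ± 7.46 to 29.4 ± 6.24 CPM. ANLN, the cytokinesis protein anillin, fell from 173 ± 25.9 to 79.0 ± 6.02 CPM, and OTUD6B, a deubiquitinase, from 37.7 ± 10.8 to 15.6 ± 3.74 CPM. In these 12 genes the shRNA-D and scramble values did not overlap, which is a description, as the rule took the largest changes. Transcripts of EIF1AX have near-identical copies in the genome, so its counts are uncertain. The calls of OTUD6B, ATP2B1 and ANLN did not hold in every refit that left out 1 library. OTUD6B lost its call in 6 of 8 such refits (adjusted p = 0.109 without shRNA-D replicate 1). ATP2B1 lost its call in 4 (0.0681 without shRNA-D replicate 3) and ANLN in 2 (0.0731 without scramble replicate 3).

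**Figure D1:**
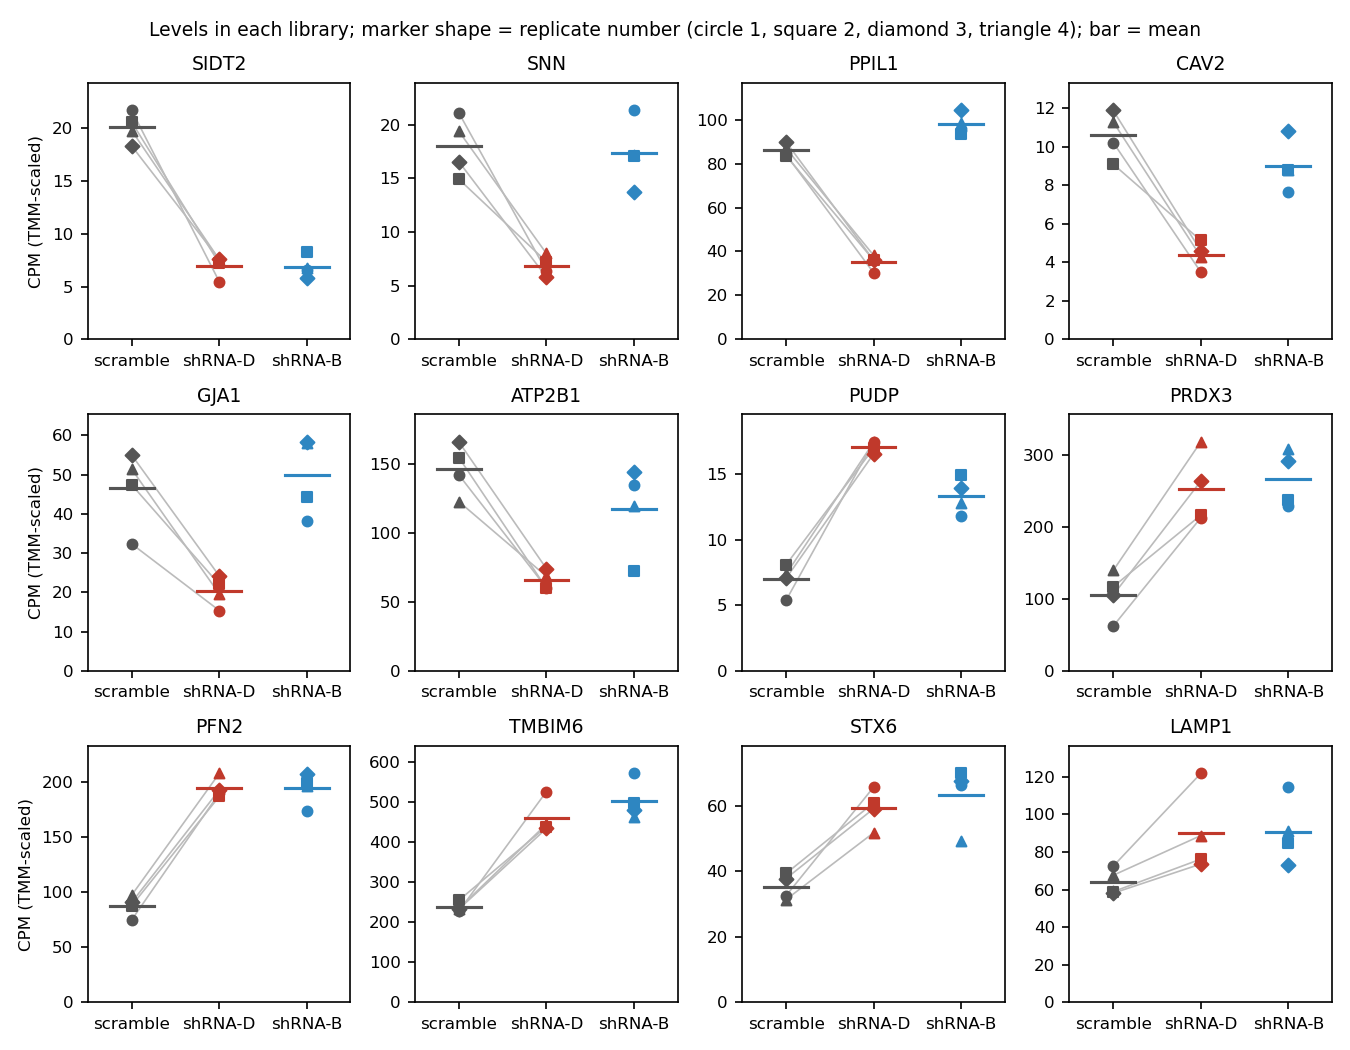
CPM of 12 genes in each scramble, shRNA-D and shRNA-B library, with one marker shape per replicate number, grey lines joining scramble and shRNA-D libraries of the same number, and bars at group means. SNN, PPIL1, CAV2, GJA1 and ATP2B1 have lower means with shRNA-D than with shRNA-B, whereas PRDX3, PFN2, TMBIM6, STX6 and LAMP1 lie above scramble with both hairpins.

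Among genes of at least 5 CPM, PUDP, PRDX3 and UCHL3 rose most. PUDP, a phosphatase acting on pseudouridine monophosphate, held 5.37, 8.08, 7.05 and 7.36 CPM in scramble libraries 1 to 4 and 17.4, 16.9, 16.5 and 17.4 CPM with shRNA-D (1.31 ± 0.09, adjusted p = 6.509e-06). PRDX3, the mitochondrial peroxiredoxin, held 62.2, 117, 105 and 139.5 CPM against 213, 216, 263 and 318 CPM (1.28 ± 0.14, adjusted p = 0.00141). PFN2, an actin-binding profilin, held 74.8, 87.7, 90.6 and 97.2 CPM against 189, 187, 192 and 207 CPM (1.15 ± 0.06, adjusted p = 1.042e-06). Scramble library 1 was the lowest of its group in each of these genes. TMBIM6, an anti-apoptotic membrane protein of the endoplasmic reticulum, held 228, 255, 233 and 234.5 CPM against 527, 439, 434 and 445 CPM (0.95 ± 0.07, adjusted p = 1.002e-05).

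UCHL3, a ubiquitin hydrolase, rose from 29.8 ± 8.60 to 69.4 ± 16.6 CPM. SLC39A14, a zinc importer, rose from 52.2 ± 14.0 to 97.2 ± 4.66 CPM, and STRADB, a pseudokinase partner of the kinase LKB1, from 36.1 ± 6.54 to 66.0 ± 3.74 CPM. MED14, the backbone subunit of Mediator, rose from 74.4 ± 11.4 to 133 ± 6.31 CPM, and APH1B, a subunit of the gamma-secretase protease, from 5.70 ± 0.71 to 10.1 ± 1.58 CPM. DIXDC1, a Wnt pathway protein, rose from 15.8 ± 2.11 to 26.6 ± 2.15 CPM, and STX6, a SNARE of endosomes and the trans-Golgi, from 35.3 ± 3.89 to 59.4 ± 5.78 CPM. These 11 genes kept their calls when any 1 of the 8 libraries was left out. PRDX3 has processed copies in the genome that could share its counts.

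The 12 falls and the 11 rises named above stood differently against the second hairpin. For shRNA-D minus shRNA-B, 1558 genes were higher (5.91% of those tested) and 1833 lower (6.95%), and this comparison uses the same shRNA-D libraries as the one with scramble. SIDT2, which fell more than any of them, did not differ between the hairpins past the threshold (above), whereas the 12 genes that fell most after it were also lower than with shRNA-B in 12 of 12 cases, and 2 of the 11 rises, PUDP and APH1B, were also higher. PPIL1 was at 97.9 ± 4.68 CPM with shRNA-B (difference -1.48 ± 0.06, adjusted p = 7.576e-08) and GJA1 at 49.8 ± 10.1 CPM (-1.29 ± 0.08, adjusted p = 1.276e-06). PFN2 was at 194 ± 14.2 CPM with shRNA-B, with a difference of 0.0034 ± 0.06. Over all calls, 414 of the 595 lower genes (69.6%) were also lower than with shRNA-B, and 73 of the 276 higher genes (26.4%) were also higher. For shRNA-B minus scramble, which shares the scramble libraries, 1064 genes were higher (4.04%) and 1461 lower (5.54%), together 9.58%, and the median of that contrast was -0.05 over the 595 lower genes and 0.29 over the 276 higher genes. In shRNA-D minus shRNA-B, another 168 and 190 did not pass the threshold, which does not show that the hairpins act alike on them.

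Beyond the genes above, LAGE3 and PIK3CB differed most below shRNA-B. PIK3CB, a catalytic subunit of phosphoinositide 3-kinase, held 35.0, 38.1, 36.1 and 31.5 CPM in scramble, 16.8, 20.5, 19.4 and 20.4 CPM with shRNA-D and a mean of 43.2 ± 3.60 CPM with shRNA-B (shRNA-D minus shRNA-B -1.16 ± 0.08, adjusted p = 2.486e-06). LAGE3, a subunit of the complex that modifies transfer RNAs with threonylcarbamoyl groups, fell from 20.3 ± 5.79 to 9.48 ± 2.62 CPM against 25.9 ± 2.39 CPM with shRNA-B, and its call against scramble was lost in 6 of 8 refits (adjusted p = 0.178 without shRNA-D replicate 2). Rises that also stood above shRNA-B were smaller. MAP3K12, a kinase of axon injury signalling, rose from 5.55 ± 1.13 to 8.86 ± 2.32 CPM against 6.10 ± 1.27 CPM with shRNA-B. TMEM59L rose from 5.72 ± 1.62 to 8.42 ± 2.57 CPM against 5.39 ± 1.33 CPM, and MICAL1, an actin-oxidising enzyme, from 8.12 ± 1.203 to 10.5 ± 1.71 CPM against 7.14 ± 0.83 CPM. PRKAR1A, the regulatory subunit of protein kinase A, rose from 191 ± 25.6 to 237 ± 6.62 CPM against 163 ± 12.01 CPM, and its call was lost in 5 of 8 refits (adjusted p = 0.115 without shRNA-D replicate 1). HIPK1, STC1, PIP4K2B and LINC01551 were also above both scramble and shRNA-B, and lost their calls against scramble in 4, 1, 5 and 5 of 8 refits, with adjusted p up to 0.168, 0.0522, 0.103 and 0.14.

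**Figure D2:**
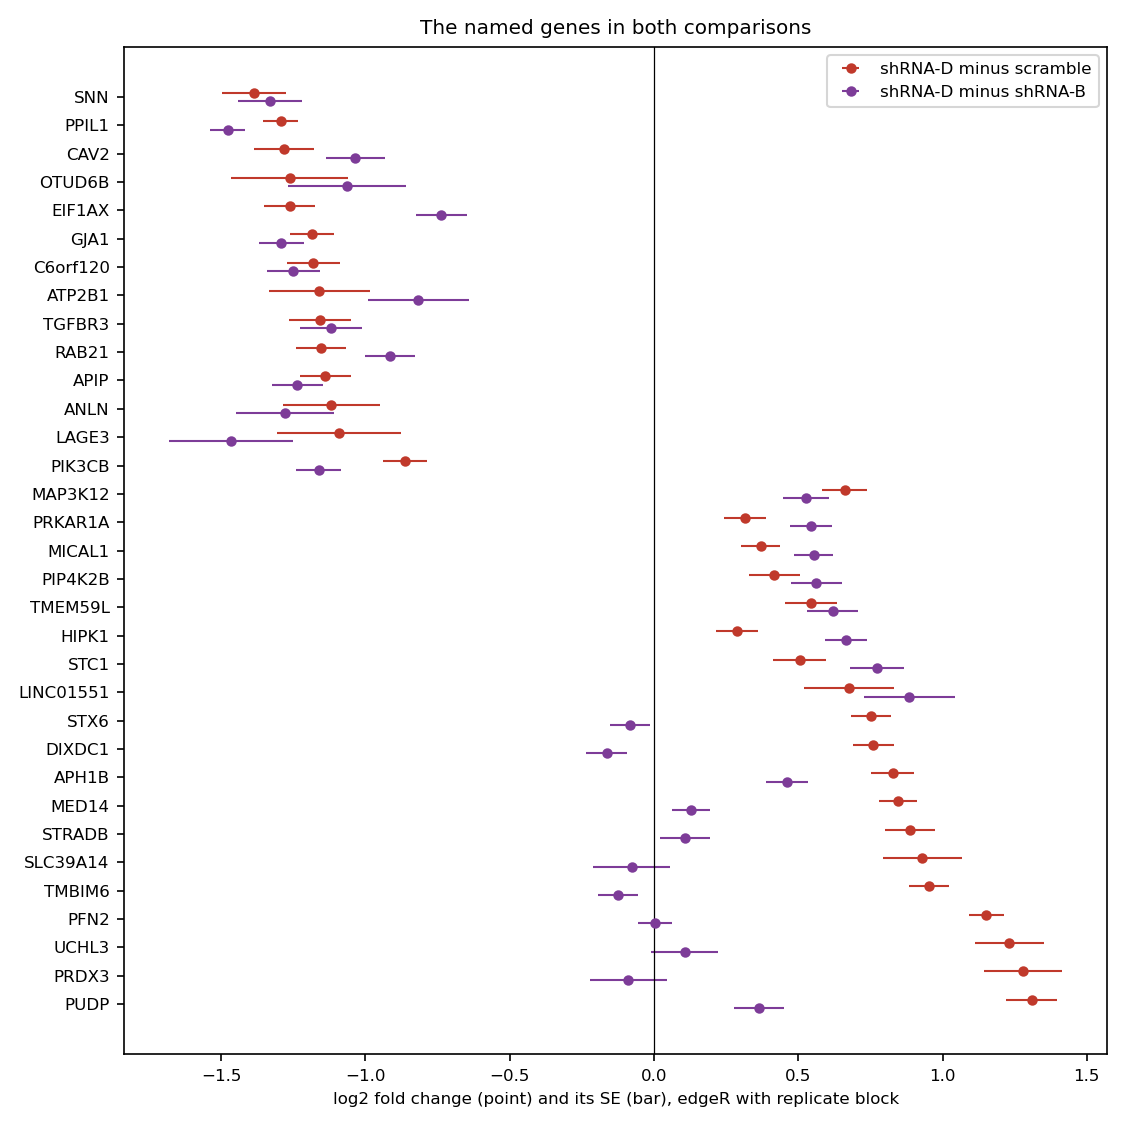
Fitted log2 fold changes with their SE for shRNA-D minus scramble (red) and shRNA-D minus shRNA-B (purple). The 12 genes that fell most after SIDT2 lie left of 0 in both comparisons, whereas most genes that rose most lie near 0 in shRNA-D minus shRNA-B.

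Heptamers in 3′ UTRs were ranked to see what the called genes share in sequence. For each heptamer with at least 100 carriers, 15964 in number, shRNA-D minus scramble was compared between genes with and without it. This difference was adjusted for 3′ UTR length and GC content. The heptamers were ordered by a score, the difference relative to the spread, which also grows with the number of carriers. The search covered 12381 genes of at least 1 CPM with a 3′ UTR of at least 50 bases in GENCODE v29. The order was set in numbers 1 and 2 and read again in numbers 3 and 4. Deviations from group means correlated between scramble 2 and shRNA-D 3 (r = 0.28) and between scramble 3 and shRNA-D 2 (r = 0.22). These readings can therefore not be taken as independent, and the search was added after seeing the data. TACTACA ranked lowest, followed by ACTACAA and then by GCTACTA, in both pairs of numbers, and tile the 10-base run GCTACTACAA. CTAACTC and AGCTAAC ranked highest in both, and GAGCTAA 3rd and then 4th; these tile GAGCTAACTC. Carriers of TACTACA differed from other genes by -0.12 on the log2 scale in numbers 1 and 2 and by -0.09 in numbers 3 and 4, by -0.10 in shRNA-D minus shRNA-B and by -0.0070 in shRNA-B minus scramble. Carriers of CTAACTC differed by 0.10 in numbers 1 and 2 and 0.09 in numbers 3 and 4, by -0.0020 in shRNA-D minus shRNA-B and by 0.10 in shRNA-B minus scramble. The first set is called shRNA-D heptamers and the second scramble heptamers after the libraries in which their carriers were low.

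Of 559 genes that fell and had a searched 3′ UTR, 63.5% carried at least 1 of the 3 shRNA-D heptamers, against 17.9% of all searched genes and 7.89% of the 228 that rose. Of those that rose, 61.4% carried at least 1 scramble heptamer, against 17.1% of all and 14.0% of those that fell. Among changes of over 1.5-fold the shares were 80.4% of 92 lower genes and 75% of 32 higher genes. These libraries also chose the heptamers, so the shares describe the lists and support nothing. The genes that fell had a median 3′ UTR of 2198 bases against 1430 over all searched genes, and longer 3′ UTRs hold more heptamers. Of genes with 0, 1 and 2 or more copies of TACTACA, 3.17%, 17.5% and 27.2% fell, with median 3′ UTR lengths of 1309, 3145 and 5037 bases.

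Of the 12 genes that fell most after SIDT2, 11 carried a shRNA-D heptamer, EIF1AX being the exception, and 3, OTUD6B, GJA1 and RAB21, also a scramble heptamer. Of the 11 rises named with them, 11 carried a scramble heptamer and 0 a shRNA-D heptamer. The sites below are shown because they stand in genes whose values carry the comparison. Each is read 5′ to 3′ on the transcript from GENCODE v29 on GRCh38, lies in the 3′ UTR, and has the heptamer in capitals.
SNN, chr16:11676611-11676637, plus strand: ttttgatggaGCTACTActgtaatgcg
PPIL1, chr6:36855551-36855577, minus strand: ggtgactactTACTACAcatgaaccat
CAV2, chr7:116506441-116506467, plus strand: tctataaaaaTACTACAatagttttat
GJA1, chr6:121448683-121448709, plus strand: tcattcctcaGCTACTActcacattca
TGFBR3, chr1:91681713-91681739, minus strand: agctatatttTACTACAaaatttgtgt
PUDP, chrX:7049611-7049637, minus strand: actccttgttAGCTAACatttaaattc
PFN2, chr3:149964980-149965006, minus strand: gggatacagtCTAACTCatctgattta
TMBIM6, chr12:49764826-49764852, plus strand: aggctgcattCTAACTCatactgtgaa
STX6, chr1:180973450-180973476, minus strand: gaaatctagtCTAACTCcaacagaaat
The full flanking stretches differ between these genes, although some sites share bases next to the heptamer. At the CAV2 and TGFBR3 sites the marked heptamer overlaps another shRNA-D heptamer, ACTACAA, which is not marked.

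The run GCTACTACAA also stands in the coding sequence of SIDT2, in exon 17 of 27 of ENST00000431081.6, whose 3′ UTR holds none of the 6 heptamers. It is shown because the hairpins target this transcript, with the run in capitals.
SIDT2, chr11:117189973-117190002, plus strand: caggacatctGCTACTACAActtcctctgc
The run is present in 41 of the 12381 searched transcripts (0.331%), of which 5 fell, SIDT2 among them, against 559 of all 12381. The run GAGCTAACTC of the scramble heptamers is present in 16, of which 0 rose and 0 fell. Hairpin sequences were not used here, so whether shRNA-D pairs with this stretch, and whether pairing accounts for any fall, was not tested.

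**Figure D3:**
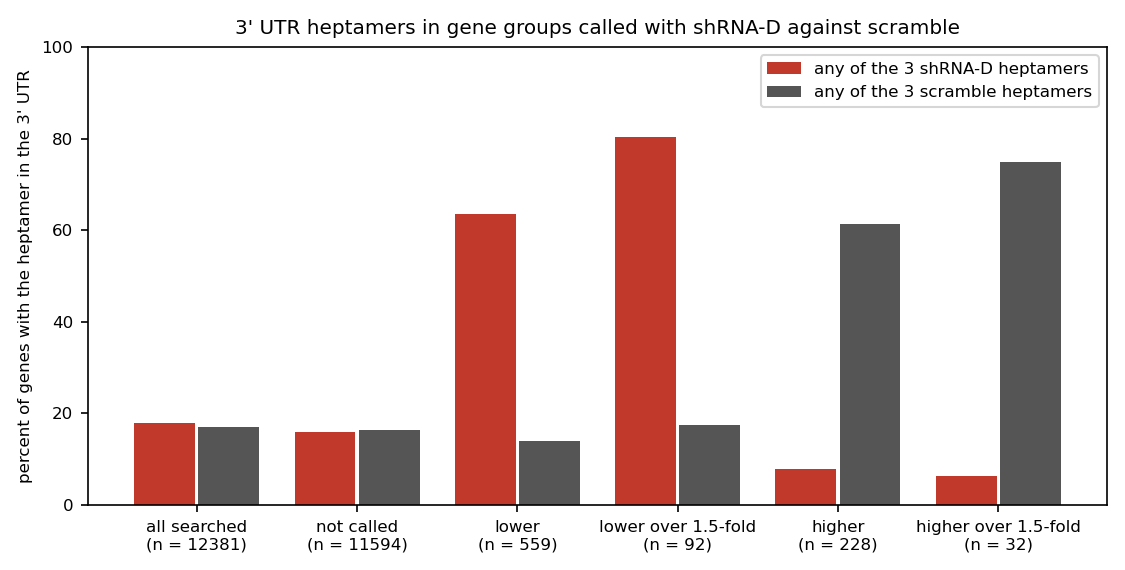
Percent of searched genes whose 3′ UTR holds any of the 3 shRNA-D heptamers (red) or any of the 3 scramble heptamers (grey), by call in shRNA-D minus scramble. The shRNA-D heptamers stand at 63.5% of lower genes against 17.9% of all, and the scramble heptamers at 61.4% of higher genes against 17.1% of all.

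The genes were then grouped by function and compartment in 59 lists, together with gene families. The lists and their members were chosen with earlier results of these data known, so a share above that of all genes is a description. Lists with more members lower than higher numbered 39, those with more higher than lower 10, and 10 had equal numbers. The shares are to be read against the 3.74% of protein-coding genes that fell and the 1.59% that rose. They depend on level as well. Between 20 and 100 CPM 5.28% of all tested genes fell and 2.06% rose, and above 100 CPM 5.61% and 1.32% did. Lists of genes at those levels are to be read against these larger shares of lower genes. All medians below are on the log2 scale. Heptamer carriers named below are to be read against 63.5% of searched genes that fell and 61.4% of those that rose. Lists differed in this. A shRNA-D heptamer was carried by 4 of 10 lower RNA polymerase II genes and 3 of 7 lower mRNA decay genes. It was carried by 0 of 2 in autophagy, 0 of 2 in fatty acid synthesis and 1 of 3 in the lysosomal membrane list. In that last list 0 of 3 higher genes carried a scramble heptamer.

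Endosomal sorting showed 5 members lower (7.58%) and 1 higher (1.52%) of 66 tested (median -0.04). The lower share counts WASHC2A and WASHC2C (below) apart. It is to be read against the 5.28% and 5.61% of all genes that fell between 20 and 100 CPM and above 100 CPM. VPS35, the core of the retromer complex that returns cargo from endosomes, fell from 208 ± 27.3 to 154 ± 18.7 CPM (-0.43 ± 0.06, adjusted p = 0.00213). CHMP2B and CHMP7, subunits of the ESCRT-III complex that cuts membrane necks, fell from 102 ± 15.2 to 60.5 ± 12.2 CPM and from 39.2 ± 2.18 to 26.0 ± 1.95 CPM. WASHC2A and WASHC2C, near-identical subunits of the actin-nucleating WASH complex on endosomes, fell by 0.46 and 0.49 on the log2 scale; reads may be split between them, so they count as 1 uncertain observation. With WASHC2A and WASHC2C counted apart, all 5 were also lower than with shRNA-B. All 5 carried a shRNA-D heptamer, against 63.5% of all searched genes that fell. SNX27, which links cargo to retromer, rose from 58.8 ± 8.89 to 86.8 ± 6.24 CPM (0.57 ± 0.07, adjusted p = 0.000743), carried a scramble heptamer, and stood at 92.4 ± 10.1 CPM with shRNA-B. These 6 calls held without any 1 library.

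RAB GTPases, the switches that mark membranes for traffic, showed 9 lower and 1 higher of 69 (median -0.06). Beside RAB21, RAB12 fell from 26.7 ± 4.60 to 17.3 ± 3.16 CPM (-0.63 ± 0.07, adjusted p = 0.000322) and stood at 34.7 ± 4.56 CPM with shRNA-B. RAB4A, a GTPase of fast recycling endosomes, fell from 68.6 ± 3.29 to 49.99 ± 5.74 CPM, while its relative RAB4B rose from 2.91 ± 0.40 to 4.64 ± 0.63 CPM. RAB40B, RAB30, RAB2A, RAB6A, RAB29 and RAB39B made up the rest of those that fell, by 0.41, 0.39, 0.27, 0.27, 0.22 and 0.24 on the log2 scale. Their calls were lost in 1, 4, 7, 7, 8 and 8 of 8 refits without 1 library, with adjusted p up to 0.29 for RAB39B without shRNA-D replicate 1, and 3 to 6 RAB genes then fell, the fewest without shRNA-D replicate 1. A shRNA-D heptamer was carried by 8 of the 9, RAB6A being the other, and 5 of these, RAB21, RAB2A, RAB30, RAB39B and RAB40B, also carried a scramble heptamer.

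Coats and endocytosis gave 3 lower (4.29%) and 1 higher (1.43%) of 70, near the shares of 3.74% and 1.59% over all protein-coding genes. AP3S1, a subunit of the adaptor that sorts cargo to lysosomes, fell from 76.1 ± 7.96 to 55.1 ± 7.15 CPM (-0.47 ± 0.07, adjusted p = 0.00141). TFRC, the transferrin receptor, fell from 320 ± 89.1 to 255 ± 68.4 CPM with overlapping groups, and CAV2 was the third. EPN2, an endocytic epsin, rose by 0.26 ± 0.06. The calls of TFRC and EPN2 were lost in 4 and 6 of 8 refits (adjusted p = 0.0665 and 0.171, both without shRNA-D replicate 1), and without 1 library 2 to 3 members fell and 0 to 2 rose.

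In the Golgi list 6 members fell and 3 rose of 76. TMED2, a cargo receptor of vesicles between the endoplasmic reticulum and Golgi, fell from 300.2 ± 27.3 to 218 ± 30.8 CPM (-0.47 ± 0.06, adjusted p = 0.00117) and TMED5 from 187 ± 39.0 to 125 ± 19.8 CPM. GOLGA5, GORASP2, YIPF4 and ST6GAL1 fell by 0.28 to 0.34 on the log2 scale and, like TMED5, lost their calls in 3 to 8 of 8 refits (adjusted p up to 0.22, ST6GAL1 without shRNA-D replicate 1), so 1 to 5 Golgi members then fell, the fewest without shRNA-D replicate 1 or 3. YIPF6, a multispanning Golgi protein, rose from 49.2 ± 5.58 to 76.4 ± 3.90 CPM (0.64 ± 0.09, adjusted p = 0.00128), beside STX6. TMED4 rose by 0.24 ± 0.05 and lost its call in 6 of 8 refits (adjusted p = 0.108 without shRNA-D replicate 1).

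Of 47 SNARE proteins and regulators, which drive membrane fusion, 3 rose, 1 fell and 43 were not called (median -0.00035). STX3, a plasma membrane syntaxin, held 31.9 ± 2.64 CPM in scramble and 41.8 ± 4.81 CPM with shRNA-D (0.39 ± 0.07, adjusted p = 0.00577), and SEC22B, of transport from the endoplasmic reticulum, 75.6 ± 7.13 and 93.3 ± 3.63 CPM (0.31 ± 0.06, adjusted p = 0.00988). With STX6, each of the 3 carried a scramble heptamer, SEC22B also a shRNA-D heptamer in its 3′ UTR of 6140 bases, and they kept their calls without any 1 library. STXBP6 fell by 0.49 ± 0.12 from 2.19 CPM and lost its call in 8 of 8 refits (adjusted p up to 0.204). Of 45 genes of endoplasmic reticulum folding and the unfolded protein response, CALR, the chaperone calreticulin, was the one called, from 689 ± 48.5 to 505 ± 37.8 CPM (-0.45 ± 0.06, adjusted p = 0.00127).

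Lysosomal membrane proteins and proton pump genes showed 3 higher and 3 lower of 54, or 5.56% each (median 0.02), SIDT2 included. LAMP1, an abundant membrane glycoprotein, held 72.5, 58.9, 58.1 and 67.6 CPM in scramble and 122, 76.2, 73.6 and 88.7 CPM with shRNA-D (0.46 ± 0.07, adjusted p = 0.00198). Library 1 was the highest of each group, and the groups did not overlap. The pump subunits ATP6V1B2 and ATP6V1A rose from 54.3 ± 1.99 to 73.2 ± 5.13 CPM and from 153 ± 25.05 to 214 ± 7.81 CPM. ATP6AP2, an accessory protein of the pump, fell from 111 ± 5.21 to 92.1 ± 3.28 CPM, and SLC17A5, the sialic acid exporter sialin, from 25.2 ± 1.82 to 18.7 ± 2.75 CPM. ATP6V1A lost its call in 2 of 8 refits (adjusted p = 0.0679 without scramble replicate 3) and ATP6AP2 in 5 (0.146 without shRNA-D replicate 1).

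Lysosomal hydrolases showed 5 lower and 1 higher of 53, although the median over the list was 0.03. LGMN, an asparagine-specific protease, fell from 57.4 ± 7.29 to 41.1 ± 3.14 CPM and stood at 38.6 ± 4.95 CPM with shRNA-B. MAN2B1, SCPEP1 and CTSB, an alpha-mannosidase, a serine carboxypeptidase and the protease cathepsin B, fell by 0.33, 0.31 and 0.28 on the log2 scale. LGMN, MAN2B1, SCPEP1 and CTSB lost their calls in 2, 5, 2 and 8 of 8 refits (adjusted p = 0.0624, 0.0971, 0.0639 and 0.329, each without shRNA-D replicate 1). Without 1 library 1 to 4 members of the list fell, the fewest without shRNA-D replicate 1.

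Of the genes of lysosomal RNA handling, RNASET2 held 28.9 ± 4.85 CPM in scramble and 31.3 ± 6.56 CPM with shRNA-D (0.10 ± 0.06, adjusted p = 0.484). SIDT1, the close relative of SIDT2, held 1.18 ± 0.26 and 0.95 ± 0.16 CPM (-0.30 ± 0.17, adjusted p = 0.453), and LAMP2, whose C isoform has been tied to lysosomal RNA uptake, 139 ± 6.80 and 129 ± 7.61 CPM (-0.11 ± 0.06, adjusted p = 0.426). Of 26 cytoplasmic ribonucleases and related factors RNH1, the ribonuclease inhibitor, rose by 0.23 ± 0.06 and ERI1, an exonuclease of histone mRNA, fell by 0.40 ± 0.09 beside SIDT2. RNH1 and ERI1 lost their calls in 7 and 5 of 8 refits, with adjusted p up to 0.169 and 0.196.

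Nutrient sensing at the lysosome gave 3 lower (5.66%) and 2 higher (3.77%) of 53. Autophagy gave 2 lower (3.7%) and 3 higher (5.56%) of 54. LAMTOR1, the anchor of the Ragulator complex on lysosomes, fell from 41.0 ± 6.34 to 29.2 ± 2.44 CPM (-0.48 ± 0.07, adjusted p = 0.00151), against 48.2 ± 5.27 CPM with shRNA-B. SESN3 and SESN1, sestrins that restrain mTORC1, fell by 0.81 ± 0.13 and 0.36 ± 0.07, and PRKAB1, an AMPK subunit, rose by 0.23 ± 0.06 beside STRADB. In autophagy, WIPI2, which recruits the conjugation machinery, rose from 67.2 ± 3.62 to 88.1 ± 9.72 CPM (0.39 ± 0.06, adjusted p = 0.00161) and TMEM41B, a lipid scramblase, from 26.3 ± 4.26 to 39.1 ± 2.51 CPM, with ATG16L2 by 0.38 ± 0.08. TECPR2 fell from 24.6 ± 4.15 to 15.6 ± 1.82 CPM and WDR45B by 0.30 ± 0.06. SESN3, SESN1, PRKAB1, ATG16L2 and WDR45B lost their calls in 1, 4, 8, 3 and 4 of 8 refits (adjusted p up to 0.0564, 0.0993, 0.146, 0.0825 and 0.0971). Without 1 library 1 to 3 nutrient-sensing genes fell, the fewest without shRNA-D replicate 3, and 1 rose, and 1 to 2 autophagy genes fell.

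At the cell surface, junction and adhesion genes showed 6 lower and 3 higher of 59 (median -0.09). CLDN12, a claudin, held 55.6 ± 9.32 CPM in scramble and 26.0 ± 5.38 CPM with shRNA-D (-1.10 ± 0.08, adjusted p = 6.909e-06), and 38.9 ± 7.995 CPM with shRNA-B. OCLN, the tight junction protein occludin, fell from 41.7 ± 2.74 to 28.9 ± 2.85 CPM, and CDH1, the epithelial cadherin, from 5.97 ± 2.17 to 4.23 ± 1.80 CPM. GJA1 was the strongest, and ITGA6 and LIMS1 fell by 0.23 and 0.28 on the log2 scale. ITGA7, MCAM and AFDN rose by 0.38, 0.29 and 0.26. ITGA6, LIMS1, ITGA7, MCAM and AFDN lost their calls in 8, 7, 3, 5 and 5 of 8 refits, with adjusted p up to 0.246 for ITGA6 without shRNA-D replicate 3. Without 1 library 4 to 7 junction genes fell and 0 to 2 rose, none rising without shRNA-D replicate 1.

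Calcium handling gave 4 lower and 0 higher of 53, although its median was -0.0066. Beside ATP2B1, ATP2C1, the Golgi calcium and manganese pump, fell from 114 ± 14.9 to 71.8 ± 8.25 CPM (-0.66 ± 0.06, adjusted p = 4.211e-05), and MICU3, a regulator of mitochondrial calcium entry, from 5.78 ± 1.501 to 3.19 ± 0.56 CPM. PPP3CA, the catalytic subunit of calcineurin, fell by 0.32 ± 0.07 and lost its call in 5 of 8 refits (adjusted p = 0.132 without shRNA-D replicate 1). Without 1 library 2 to 4 calcium genes fell, the fewest without replicate 1 or 3 of either group. All 4 carried a shRNA-D heptamer, against 63.5% of all searched genes that fell. TGF-beta and BMP signalling gave 3 lower and 0 higher of 49: TGFBR3, SMURF2, a ubiquitin ligase that limits receptor signalling, from 66.1 ± 6.76 to 42.5 ± 7.55 CPM, and TGFBR1, the type I receptor, by 0.43 ± 0.09, the last of which lost its call in 5 of 8 refits (adjusted p up to 0.101).

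**Figure D4:**
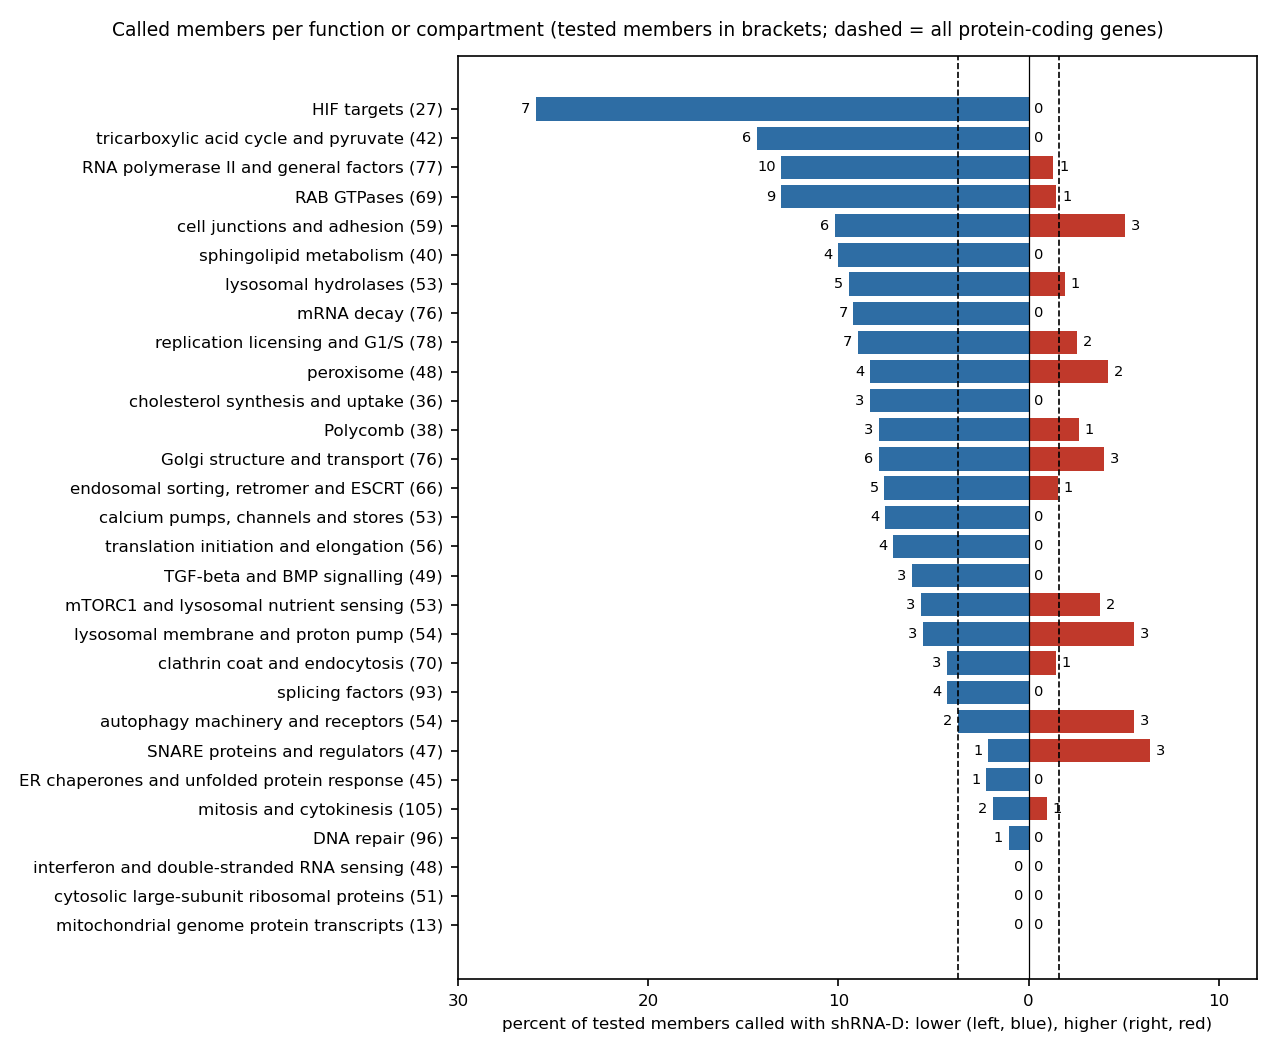
Percent of tested members called lower (blue, left) and higher (red, right) with shRNA-D in 29 lists and families, with the number called at each bar end and the shares over all protein-coding genes, 3.74% and 1.59%, as dashed lines. Among those shown, HIF targets, the TCA cycle, RNA polymerase II factors and RAB GTPases have the longest bars on the lower side. The lists were chosen with earlier results of these data known. Families not shown include RNA-binding motif proteins (13.9% lower) and kelch-like proteins (12.9% lower).

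In mitochondria the tricarboxylic acid cycle and pyruvate list showed 6 lower and 0 higher of 42 (median -0.06), or 14.3%. PDP2, a phosphatase that activates pyruvate dehydrogenase, held 35.9 ± 4.40 CPM in scramble and 22.3 ± 4.09 CPM with shRNA-D (-0.70 ± 0.07, adjusted p = 0.000138). IDH1 and IDH2, the cytosolic and mitochondrial NADP-dependent isocitrate dehydrogenases, fell from 84.2 ± 10.6 to 66.1 ± 5.23 CPM and from 61.5 ± 10.9 to 44.9 ± 12.4 CPM. SUCLG2, a succinyl-CoA ligase subunit, and ME2, a malic enzyme, fell by 0.53 and 0.24 on the log2 scale, and lost their calls in 6 and 8 of 8 refits (adjusted p up to 0.186 and 0.212). Without 1 library 3 to 4 members fell, and with total counts alone 3. CPT2, an inner-membrane carnitine enzyme that lets fatty acids enter oxidation, rose from 30.8 ± 1.62 to 46.8 ± 0.97 CPM (0.60 ± 0.06, adjusted p = 0.000138), the one call among 39 genes of fatty acid oxidation. The 13 mitochondrial protein transcripts, 55 complex I genes and 14 cytochrome oxidase genes held 0, 1 and 0 calls.

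Peroxisomal genes showed 4 lower and 2 higher of 48. PEX11A, which shapes and divides peroxisomes, fell from 19.3 ± 2.72 to 13.8 ± 2.33 CPM (-0.49 ± 0.06, adjusted p = 0.000293), while PEX10, a ligase of the import machinery, rose from 18.8 ± 0.80 to 24.4 ± 1.85 CPM (0.37 ± 0.06, adjusted p = 0.00259). PEX13 and HSD17B4 fell by 0.31 and 0.22 on the log2 scale, and lost their calls in 6 and 8 of 8 refits, with adjusted p up to 0.249 for HSD17B4 without shRNA-D replicate 3. Without 1 library 1 to 2 peroxisomal genes fell and 1 to 2 rose.

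Sphingolipid metabolism gave 4 lower and 0 higher of 40 (median -0.08). SPTLC1, a subunit of the serine palmitoyltransferase that starts sphingolipid synthesis, held 88.1 ± 9.61 CPM in scramble and 46.96 ± 2.08 CPM with shRNA-D (-0.90 ± 0.06, adjusted p = 5.002e-06), against 99.8 ± 11.3 CPM with shRNA-B (-1.08 ± 0.06, adjusted p = 4.459e-07). Its searched 3′ UTR held no shRNA-D heptamer. UGT8, which makes galactosylceramide, fell from 31.9 ± 3.81 to 22.9 ± 0.85 CPM, and GLTP, a glycolipid transfer protein, from 43.4 ± 2.16 to 30.2 ± 2.04 CPM, above its 16.8 ± 2.59 CPM with shRNA-B (0.85 ± 0.09, adjusted p = 0.000154). SPHK1, a sphingosine kinase, fell by 0.37 ± 0.09. GLTP and SPHK1 lost their calls in 2 and 8 of 8 refits (adjusted p up to 0.066 and 0.21), and 2 to 4 members then fell, the fewest without replicate 3 of either group.

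Cholesterol genes gave 3 lower and 0 higher of 36, and fatty acid synthesis and storage 2 lower and 2 higher of 47. LBR, a sterol reductase and lamin receptor of the inner nuclear membrane, fell from 349 ± 52.6 to 228 ± 41.5 CPM (-0.62 ± 0.08, adjusted p = 0.000641). NSDHL and INSIG2 fell by 0.31 and 0.30 on the log2 scale, and SCD and FASN, the stearoyl-CoA desaturase and the fatty acid synthase, by 0.27 and 0.28. LPIN1, a phosphatidate phosphatase, rose by 0.33 ± 0.05 and AGPAT5, an acyltransferase, by 0.49 ± 0.08, and these 2 kept their calls without any 1 library. NSDHL, INSIG2, SCD and FASN lost theirs in 5, 7, 7 and 8 of 8 refits (adjusted p up to 0.145, 0.165, 0.204 and 0.228), which left 1 to 2 cholesterol genes and 0 to 1 fatty acid synthesis genes lower.

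In the nucleus, RNA polymerase II and its general factors showed 10 lower and 1 higher of 77 (median -0.06), or 13.0% lower. POLR2D, a polymerase subunit, held 123 ± 3.54 CPM in scramble and 84.0 ± 5.96 CPM with shRNA-D (-0.55 ± 0.06, adjusted p = 0.000176). NELFCD, of the complex that pauses the polymerase near promoters, fell from 105 ± 0.57 to 69.01 ± 7.01 CPM, and INTS8, an Integrator subunit, from 116 ± 11.1 to 85.7 ± 8.73 CPM. The elongation factors CDC73, PAF1 and RTF1, the initiation factors GTF2A1, GTF2A2 and TAF5, and HEXIM1, which holds P-TEFb inactive, fell by 0.24 to 0.41 on the log2 scale, while GTF2H1 rose by 0.28. These last 8 lost their calls in 4 to 8 of 8 refits, with adjusted p up to 0.291 for PAF1 without shRNA-D replicate 3. Without 1 library 3 to 8 members fell, the fewest without replicate 1 or 3 of either group, and 4 did with total counts alone.

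Polycomb genes showed 3 lower and 1 higher of 38 (median -0.12), and these calls held without any 1 library. PCGF6, of a variant PRC1, fell from 55.9 ± 8.19 to 29.6 ± 7.02 CPM (-0.94 ± 0.07, adjusted p = 1.295e-05) and AEBP2, a PRC2 cofactor, from 59.9 ± 12.8 to 31.7 ± 3.98 CPM (-0.90 ± 0.09, adjusted p = 0.000179). JARID2, another PRC2 cofactor, fell from 80.1 ± 7.19 to 62.6 ± 6.47 CPM. Each of the 3 carried a shRNA-D heptamer and was lower than with shRNA-B. CBX7, which reads the Polycomb mark, rose from 8.14 ± 1.35 to 10.7 ± 1.44 CPM.

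The mRNA decay list showed 7 lower and 0 higher of 76 (median -0.08). RBM7, an adaptor of the nuclear exosome, held 34.4 ± 3.79 CPM in scramble and 21.5 ± 1.68 CPM with shRNA-D (-0.68 ± 0.09, adjusted p = 0.000779). ZFP36L2, which binds AU-rich elements, fell from 63.5 ± 10.8 to 48.2 ± 6.63 CPM, and TOB1, an adaptor of the CCR4-NOT deadenylase, from 41.0 ± 3.84 to 31.3 ± 3.804 CPM. YTHDF3, a reader of methylated adenosine, fell by 0.47, PATL1 and TOB2 by 0.30 each, and the nuclear exonuclease XRN2 by 0.26 on the log2 scale. YTHDF3, PATL1, TOB2 and XRN2 lost their calls in 1, 5, 6 and 7 of 8 refits (adjusted p up to 0.0585, 0.117, 0.186 and 0.296). Without 1 library 3 to 8 members of the list fell, the fewest without shRNA-D replicate 1. In microRNA silencing 1 of 30 was called, TNRC6B, a scaffold of the silencing complex, which fell from 119.7 ± 13.4 to 91.4 ± 9.21 CPM (-0.39 ± 0.07, adjusted p = 0.00642). Translation initiation and elongation gave 4 lower of 56: EIF1AX, EIF3J from 135 ± 14.9 to 94.2 ± 4.26 CPM, EIF5A from 290 ± 34.0 to 200.1 ± 44.8 CPM, and EIF4E2 by 0.22 ± 0.06, which lost its call in 8 of 8 refits (adjusted p up to 0.303).

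Of 78 genes of replication licensing and the passage from G1 to S, 7 fell and 2 rose, and the median over the list was 0.0036. MCM4, a subunit of the replicative helicase, held 479 ± 40.1 CPM in scramble and 370 ± 51.2 CPM with shRNA-D (-0.38 ± 0.07, adjusted p = 0.00577), and CDC6, which loads that helicase, 116 ± 14.2 and 91.02 ± 17.1 CPM. E2F3, E2F7 and E2F5 fell by 0.41, 0.52 and 0.23 on the log2 scale, and the D-type cyclins CCND1 and CCND2 by 0.39 and 0.34. E2F1 rose from 53.6 ± 3.86 to 66.1 ± 1.64 CPM and GINS1, also of the helicase, from 60.3 ± 12.4 to 82.1 ± 7.26 CPM. CCND1, CCND2, CDC6, E2F5 and E2F1 lost their calls in 6, 2, 1, 8 and 2 of 8 refits (adjusted p up to 0.109, 0.0621, 0.0557, 0.3001 and 0.0613), and without 1 library 4 to 6 members fell, the fewest without shRNA-D replicate 2 or 3, and 1 to 2 rose. Mitosis genes gave 2 lower, ANLN and the chromosome motor KIF4A, and 1 higher, the phosphatase CDC25A, of 105, and DNA repair 1 lower of 96, INIP, of the single-stranded DNA-binding SOSS complex, which fell from 34.1 ± 3.63 to 21.9 ± 0.37 CPM.

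HIF targets had the largest share lower, 7 of 27 or 25.9%, with 0 higher (median -0.16). EGLN1, the prolyl hydroxylase that marks HIF for degradation and is itself a target, held 158 ± 43.2 CPM in scramble and 112 ± 35.8 CPM with shRNA-D (-0.52 ± 0.08, adjusted p = 0.00163), against 173 ± 44.9 CPM with shRNA-B. ADM, the peptide adrenomedullin, SLC2A1, the glucose transporter GLUT1, and INSIG2 fell by 0.40, 0.34 and 0.30 on the log2 scale. BNIP3, a mitophagy receptor, STC2, a secreted glycoprotein, and CITED2, a HIF inhibitor, fell by 0.28, 0.27 and 0.24. In each of the 7 the scramble and shRNA-D values overlapped, since numbers differed more than hairpins, and 4 of 4 pairs fell. The calls other than that of EGLN1 were lost in 5 to 8 of 8 refits (adjusted p up to 0.317, CITED2 without shRNA-D replicate 3), 1 to 5 targets fell without 1 library, the fewest without replicate 1 or 4 of either group, and 1 did with total counts alone. Of the 7, 3 carried a shRNA-D heptamer, EGLN1, SLC2A1 and INSIG2, against 63.5% of all searched genes that fell. ADM, BNIP3 and STC2 carried neither kind of heptamer, and CITED2 fell although it carried only a scramble heptamer.

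**Figure D5:**
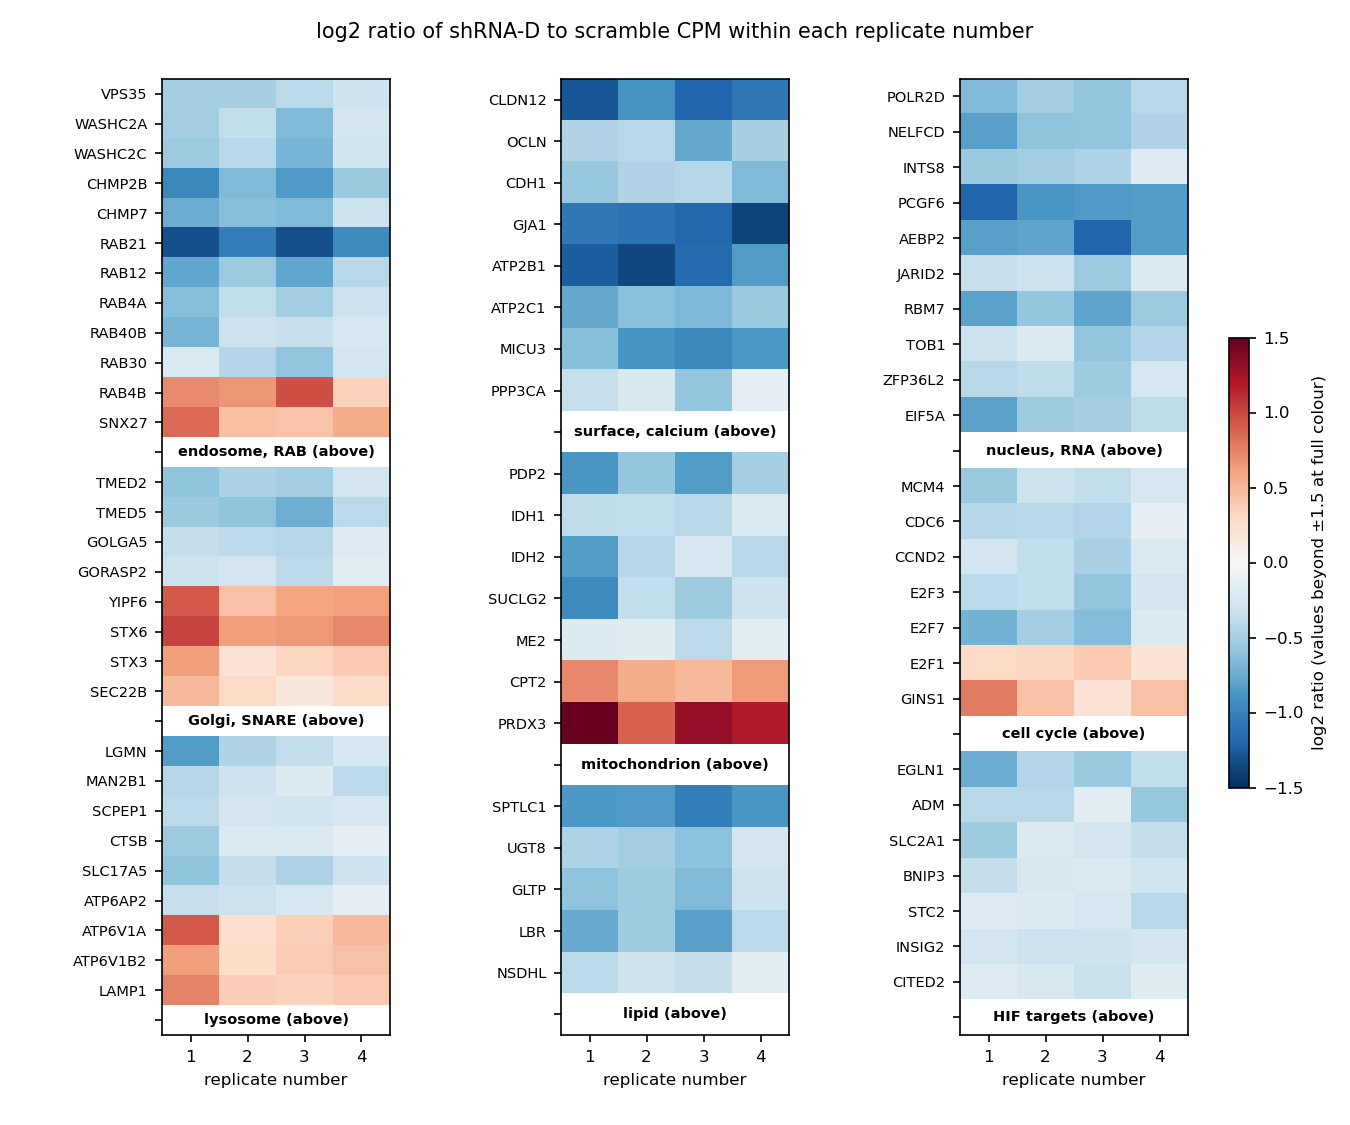
log2 ratio of shRNA-D to scramble CPM within each replicate number for named genes, grouped by compartment or function (blue lower, red higher with shRNA-D). The direction is the same across numbers 1 to 4 in each gene shown, with the strongest colours often in number 1. The genes shown were called in the paired fit, so the shared direction is a description.

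Several groups held no call. These were the 51 large-subunit and 32 small-subunit cytosolic ribosomal protein genes, 53 histone genes, 27 snoRNA host genes, 52 DEAD and DEAH box helicases and 48 interferon and double-stranded RNA sensing genes. Their medians lay between -0.05 and 0.04. At an unadjusted p under 0.05, 4057 genes (15.4%) differed over the whole table, so an absent call is not evidence of an equal level.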

How the data were processed

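The authors deposited 1 table of estimated counts per gene for 12 libraries. The submitters' processing notes name fastp, a read trimmer, and kallisto, which estimates counts by pseudoalignment; no source used here gives versions, annotation, build or strand. Estimated counts were rounded to whole numbers. Genes were kept by edgeR's filterByExpr, scaled by TMM and tested with edgeR 4.0.16 (R 4.3.3; robust quasi-likelihood F-test) in 1 fit of group plus replicate number over the 12 libraries, with Benjamini-Hochberg adjustment over 26366 genes. SE is the log2 change divided by the square root of F. The statistics script was tested on simulated data, where calls on changed genes had the right direction and the share of false calls was above the nominal level.

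Numbers were taken as pairs because r of deviations from group means was positive in each same-numbered pair (0.14 to 0.519, against -0.248 to 0.28 in other pairs). It stood apart for numbers 1 (0.515) and 4 (0.519). Numbers 2 (0.14) and 3 (0.192) correlated less than scramble 2 with shRNA-D 3 (0.28) and scramble 3 with shRNA-D 2 (0.22). The pairing within numbers 2 and 3 is therefore uncertain.

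Named genes are SIDT2, then up to 12 per direction by size (mean of at least 5 CPM, same direction in 4 of 4 pairs), up to 8 per direction also called against shRNA-B, up to 4 called members per list and direction, and SIDT1, RNASET2, LAMP1 and LAMP2; where a list is named in full, further members were added after their values were seen. Some genes that this rule names are not reported here. The members and lists were chosen with earlier results of these data known. The heptamer search was added after seeing the data and used the longest 3′ UTR per gene in GENCODE v29, which may not be the authors' annotation. A planned description of protein sequences was not done, since no protein table was used here. Alternatives were no block, the 8 libraries alone, DESeq2 1.42.0, RLE, upper-quartile and total-count scaling, other filters, a minimum 1.2-fold change, and leaving out each library or number.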

Additional observations from a re-analysis of the deposited data

Results flagged for a closer look

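Of 330 groups of 4 libraries (scramble and shRNA-D, 165 named genes), 23 held 1 library far from the other 3, with a gap to the nearest, as a share of the group's range, above Dixon's 95% critical value. Chance flags about 1 in 20 groups. Values are in CPM.

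Many were shRNA-D replicate 1. It was high for TMBIM6 at 527, against 434 to 445 in the other 3, for WIPI2 at 102.5, for PEX10 at 27.1 and for RNH1 at 30.02. It was low for RAB21 at 31.9, TGFBR1 at 40.8, TAF5 at 32.3, PEX11A at 10.3, E2F5 at 24.9 and SCD at 646, the last against 1035 to 1111.

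Scramble replicate 1 was low for STRADB at 26.3, PEX11A at 15.3 and CDC6 at 94.9, and high for SCPEP1 at 52.3. PEX11A was thus low in number 1 of both groups. STXBP6 was high in number 4 of both groups, at 3.77 in scramble and 2.78 with shRNA-D.

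Other scramble libraries that stood apart were replicate 4 for PIP4K2B at 45.4 and for GTF2A2 at 41.4, replicate 3 for SPTLC1 at 102 and for PEX10 at 17.6, and replicate 2 for PAF1 at 88.7. With shRNA-D, replicate 2 was low for SEC22B at 87.9 and replicate 4 for ITGA7 at 11.6.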

How the results depend on the processing

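For shRNA-D minus scramble, the paired fit gave 276 genes higher and 595 lower. Without the replicate block these were 19 and 52, and for shRNA-D minus shRNA-B 123 and 128 in place of 1558 and 1833. Without a filter on low counts 642 were higher and 1151 lower; at a mean of at least 1 CPM 488 were higher; DESeq2 with the block gave 444 higher and 811 lower. A minimum 1.2-fold change left 31 and 100, and 343 and 184 against shRNA-B. Genes lower than shRNA-B numbered 1188 under upper-quartile scaling and 1062 with total counts alone. Without 1 library the ranges were 120 to 278 higher and 236 to 464 lower, and against shRNA-B 917 to 1779 and 685 to 1725. Without 1 replicate number they were 105 to 274 and 181 to 641, and 709 to 1751 and 408 to 1745. The share of lower genes with a shRNA-D heptamer (63.5%) was 85.4% without the block, 68.9% under upper-quartile scaling, 70.5% with total counts alone, 58.1% with no filter, 84.6% at the minimum fold, and 65.8% to 80.6% without 1 library or number (to 78.3% without 1 library, and from 67.3% without 1 number). The share of higher genes with a scramble heptamer (61.4%) was 100% without the block, 52.8% with no filter, 50.5% at 1 CPM, 96.6% at the minimum fold, 51.4% by DESeq2, 52.1% to 74.7% without 1 library and 64.5% to 80.4% without 1 number. The causes were not tested. Of 162 called genes named, 85 kept their call without any 1 library, 32 without the block, 161 by DESeq2 and 129 with total counts alone, and none reversed in the alternatives run.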
